A study of Homo sapiens with 6 samples.

Results

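The genes described here build the nuclear pore or carry cargo through it. They were taken from the deposited gene table by symbol: all names beginning with NUP and a digit, the importins alpha and beta (KPNA and KPNB), the numbered importins (IPO), the exportins (XPO), the transportins TNPO1 to TNPO3, and CSE1L, RAN, RANBP1, RANBP2, RANGAP1, RCC1, NXF1, NXT1, TPR and AAAS. Of 15651 genes in the table, 55 symbols matched, and 54 remained after NUP50-AS1, whose symbol carries a hyphen, was dropped. Pore proteins made up 23 of the 54 genes and soluble transport factors 31. All 54 passed the filter of at least 4 normalized counts in at least 3 libraries, as did 15246 genes in all. The importin alpha KPNA7 was close to the floor, with 9, 0 and 4 reads in the DMSO libraries and 4, 9 and 9 in the BRL-50481 libraries, so no fold change is given for it.

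The cells were MDA-MB-231, a long-established human line of triple-negative breast cancer (TNBC), a tumour type that lacks the estrogen and progesterone receptors and HER2 amplification. The study asked what inhibition of PDE7A, an enzyme that breaks down cyclic AMP, does to gene expression in these cells. One group of 3 libraries came from cells given DMSO, the solvent, and the other group of 3 from cells given the PDE7 inhibitor BRL-50481 at 50 μM for 72 h. The sample tags of the treated libraries instead give 5 μM and 48 h. Both groups are cultures of 1 unmodified cell line grown in DMEM with serum, no dose or time is given for DMSO, and the series text calls the replicates biological without saying what separates them. In bulk RNA, fewer cells expressing a gene and less RNA per cell cannot be told apart.

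The nuclear pore is a large channel through the nuclear envelope, built from stacked rings of nucleoporins with a central channel of flexible proteins rich in phenylalanine-glycine repeats, filaments on the cytoplasmic face and a basket on the nuclear face. Importins bind cargo in the cytoplasm and release it in the nucleus when they meet RAN loaded with GTP, whereas exportins bind cargo together with RAN-GTP and release it once the GTP is hydrolysed. Most messenger RNA leaves by a separate route, carried by the NXF1-NXT1 heterodimer.

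The libraries held 30750573 to 33446984 reads on genes. All values below are normalized counts, that is reads divided by a size factor of the library, and errors are SDs over 3 libraries unless an SE is named. Differences in log2 units are limma estimates of the log2 fold change, BRL-50481 over DMSO, with their SE. DMSO replicate 1 stood apart from the other DMSO libraries. The chi-square statistic per degree of freedom was 24.9 and 15.3 between it and replicates 2 and 3, 4.28 between replicates 2 and 3, and 2.77 to 3.83 among the BRL-50481 libraries. Markers of the line were present, with VIM at 58840 ± 2498 and CD44 at 31414 ± 413 in DMSO, whereas ESR1 was not listed and PGR averaged 1.67. ERBB2, the gene of HER2, was nevertheless expressed, with a DMSO mean of 1677 ± 75.5. Its BRL-50481 mean was higher, at 1914 ± 59.1 (log2 fold change 0.19 ± 0.058 SE, adjusted p = 0.0119, limma). Amplification of ERBB2 was not tested. Of the markers of leukocytes, fibroblasts and endothelium, 6 of 11 were listed; their summed counts ranged over 5.88 to 13.3, 330 to 387 and 326 to 396 in DMSO and over 24.2 to 34.2, 423 to 480 and 465 to 552 in BRL-50481. PTPRC, CD3D, DCN and VWF were among those not listed, and the part of such cells in the changes below was not tested.

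Nuclear pore and transport genes moved in both directions and by small amounts. With p-values adjusted by Benjamini and Hochberg across the whole table and a threshold of 0.05 (limma), 15 of the 54 genes were higher in BRL-50481 (27.8%, against 28.9% of all genes tested) and 17 were lower (31.5%, against 29.8% of all genes). The remaining 22 were not called. The shares called were thus close to those of the whole table, and the median log2 fold change was -0.0065 for the members and 0.015 for all genes tested. No called member passed an absolute log2 fold change of 1, which 8.04% of all genes tested did. DMSO and BRL-50481 libraries were fully apart in 17 members that were higher and 18 that were lower (31.5% and 33.3%, against 31.9% and 32.3% of all genes). The largest fall was that of NXF1 and the largest rise that of XPO1.

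**Figure D1:**
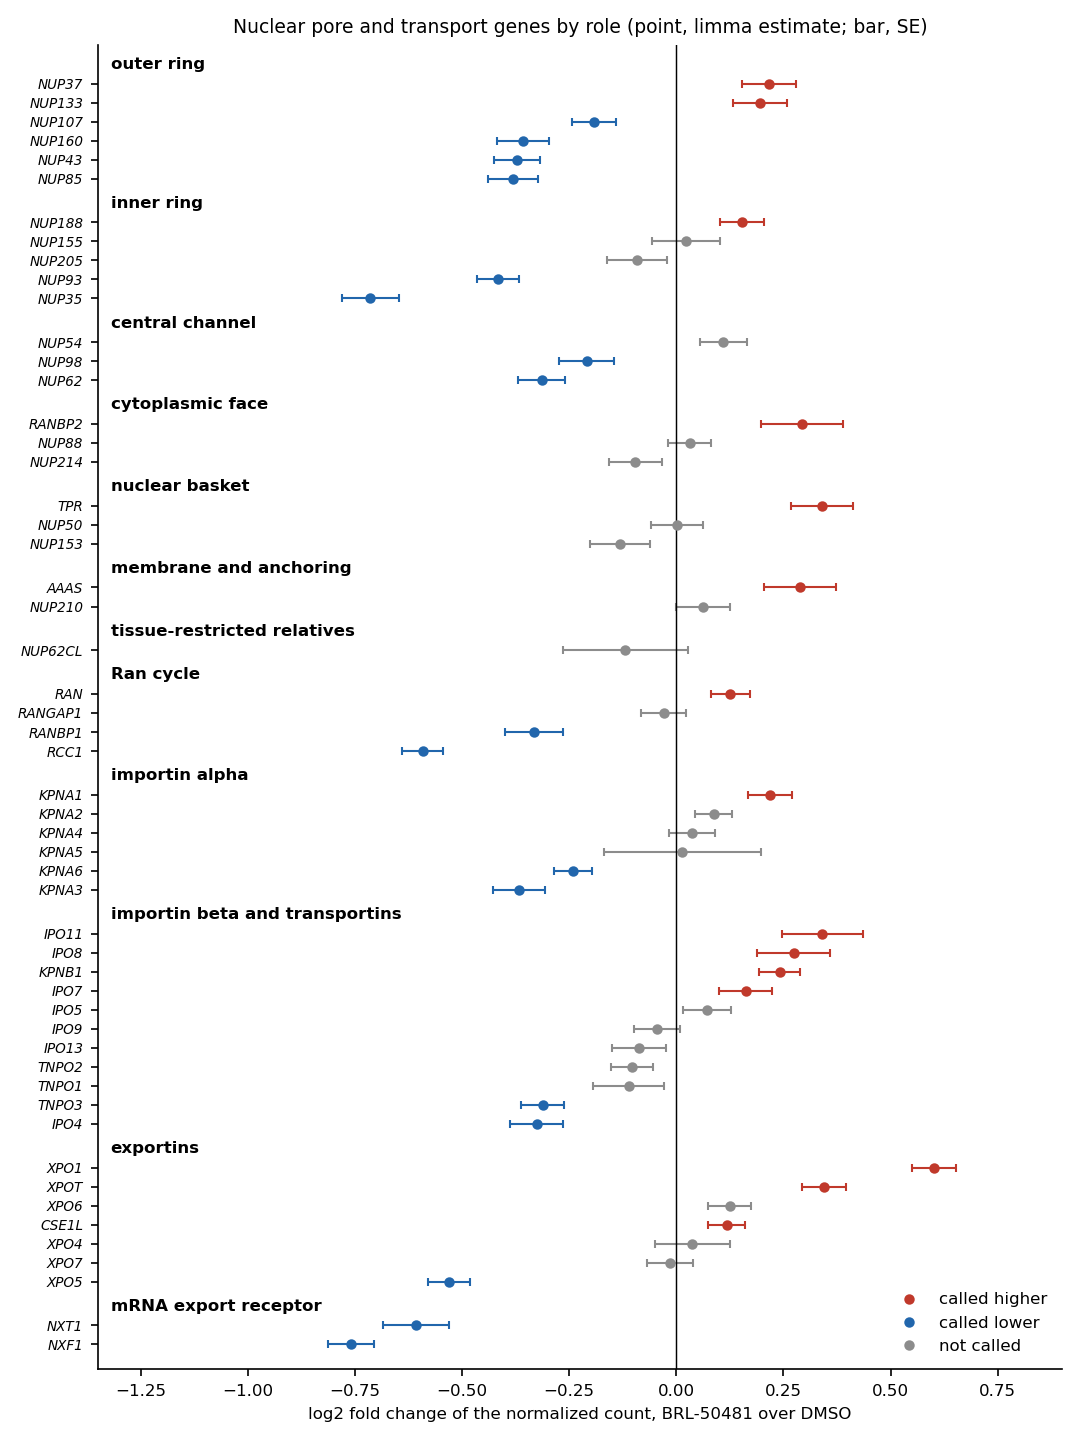
Log2 fold change of each gene, BRL-50481 over DMSO, with its SE as a bar, for 53 genes grouped by role (KPNA7 left out); red points were called higher, blue points lower and grey points not called. NXF1, NUP35, NXT1, RCC1 and XPO5 lie below -0.5, and XPO1 at 0.60 is the furthest to the right.

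The direction of the smaller changes depended on how the libraries were compared. DMSO replicate 1 had the highest DMSO value in 39 of the 54 genes and DMSO replicate 2 the lowest in 35. Across the 54 genes, the deviation from the DMSO mean went with transcript length, with a Spearman rho of 0.673 in replicate 1, -0.593 in replicate 2 and -0.491 in replicate 3. These coefficients describe genes within libraries that share their depth, and have no test. After removal of the relation of each library to the length and GC content of transcripts, 10 members were higher (18.5%, against 28.5% of the 14738 genes with a known length) and 30 were lower (55.6%, against 37.2%), so the share of calls that were higher was 25% in place of 46.9%. The correction moved the median of the members to -0.14 and that of all genes to -0.036. All 17 falls kept their call under it, while 6 rises lost theirs (CSE1L, IPO7, KPNA1, NUP133, NUP188 and RANBP2). Without DMSO replicate 1, 22 members were higher, KPNA7 among them (32.0% of all genes were), and the number of lower members was still 17 (32.4% of all genes). The part of transcript length or of this library in the changes was not tested.

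**Figure D2:**
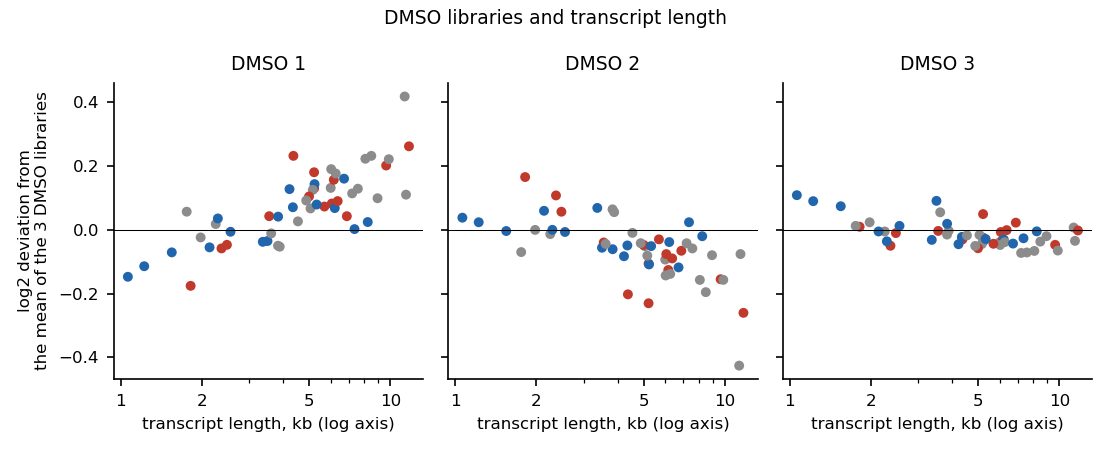
Deviation of each DMSO library from the mean of the 3 DMSO libraries (log2 scale) against the length of the canonical transcript (log axis, kilobases) for 53 genes, coloured red where called higher, blue where called lower and grey where not called. The longest transcripts lie above 0 in DMSO replicate 1 and mostly below 0 in replicate 2.

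**Figure D3:**
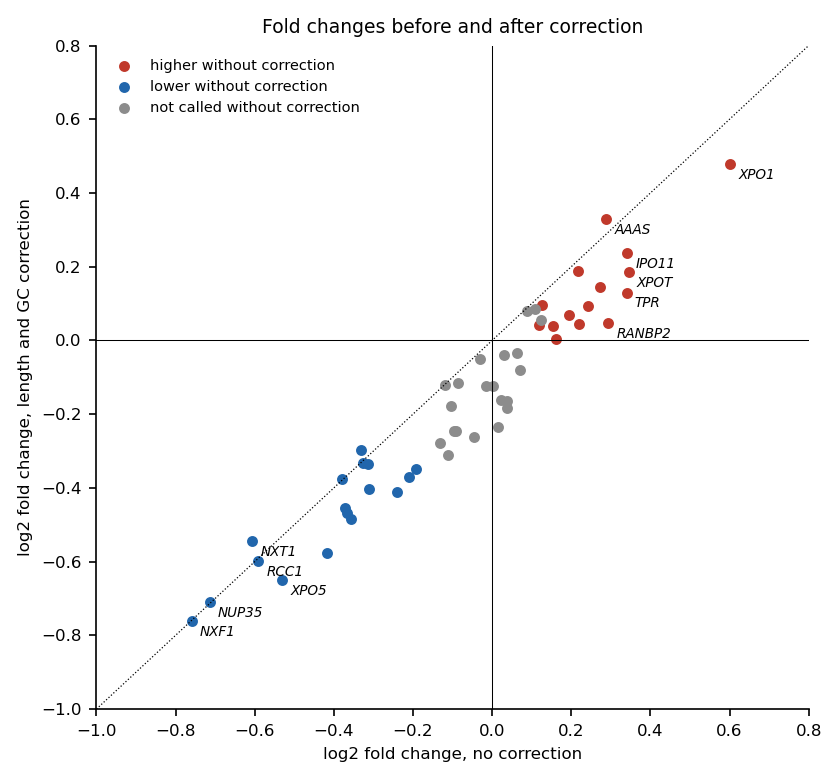
Log2 fold change (BRL-50481 over DMSO) of 53 genes without a correction (horizontal) and with each library corrected for transcript length and GC content (vertical), coloured by the call without a correction, with the dotted line marking equality. NXF1, NUP35 and RCC1 lie on the line, whereas most genes near 0 lie below it.

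The mRNA export receptor had the clearest change. Both of its subunits fell, and no BRL-50481 library reached the lowest DMSO library for either. Such falls without overlap made up 32.3% of all genes tested. NXF1, the subunit that contacts the pore channel (chr11:62792123-62806302, minus strand), had normalized counts of 2577, 2514 and 2452 in the DMSO libraries and 1446, 1502 and 1507 in the BRL-50481 libraries. This was a fall of 40.9% (log2 fold change -0.76 ± 0.053 SE, adjusted p = 1.13e-07, limma). NXT1, its small partner (chr20:23350791-23354771, plus strand), had 1077, 1224 and 1286 in the DMSO libraries and 817, 746 and 785 in the BRL-50481 libraries, a fall of 34.4% (log2 fold change -0.61 ± 0.076 SE, adjusted p = 1.74e-05). Counted per kilobase of transcript, the pair summed to 2139, 2251 and 2281 in the DMSO libraries and 1401, 1359 and 1397 in the BRL-50481 libraries, and NXF1 made up 49.4% ± 2.9 in DMSO and 46.8% ± 1.63 in BRL-50481, ranges that overlapped. The pair fell together, with the balance between its subunits within the spread of the libraries. Both calls held in all 17 alternative analyses, in which NXF1 lay between -0.78 and -0.74 whenever 1 library was left out.

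Of the exportins, 3 were higher, 1 lower and 3 not called, against 28.9% higher and 29.8% lower among all genes tested. XPO1 (also called CRM1), the main exportin for proteins with a leucine-rich export signal (chr2:61476032-61538741, minus strand), had normalized counts of 7619, 6857 and 6807 in the DMSO libraries and 10781, 10691 and 10786 in the BRL-50481 libraries, a rise of 51.8% (log2 fold change 0.60 ± 0.051 SE, adjusted p = 5.77e-07). XPOT, which carries transfer RNA out of the nucleus (chr12:64404392-64451125, plus strand), had 12354, 10905 and 11598 in the DMSO libraries and 15050.3, 14513 and 14666 in the BRL-50481 libraries, a rise of 27% (log2 fold change 0.35 ± 0.051 SE, adjusted p = 6.87e-05). In contrast, XPO5, the exportin of microRNA precursors (chr6:43522334-43576038, minus strand), had 9864, 9010.2 and 9150.3 in the DMSO libraries and 6374, 6562 and 6457 in the BRL-50481 libraries, a fall of 30.7% (log2 fold change -0.53 ± 0.048 SE, adjusted p = 1.07e-06). For these 3 exportins the groups were apart in every library, and their calls held in all 17 alternatives, although XPOT shrank to a log2 fold change of 0.18 with the length and GC correction. CSE1L, which returns importin alpha to the cytoplasm and was the most abundant exportin, had 16579.9, 15658 and 16056 in the DMSO libraries and 17529.8, 17469 and 17378 in the BRL-50481 libraries (log2 fold change 0.12 ± 0.043 SE, adjusted p = 0.0307). Its rise of 8.48% was called in only 1 of 6 fits that left out a library, the one without DMSO replicate 1 (log2 fold change 0.14), and became a log2 fold change of 0.042, not called, with the length and GC correction. XPO6, the exportin of actin, at 0.12 ± 0.051 log2 units (adjusted p = 0.0507), XPO4 at 0.038 ± 0.087 log2 units (adjusted p = 0.73) and XPO7 at -0.014 ± 0.054 log2 units (adjusted p = 0.836) were not called. With that correction XPO4 (corrected log2 fold change -0.18) and XPO7 (-0.12) were called lower, so that 2 exportins were higher and 3 lower. Of all genes with a known length, 28.5% were higher and 37.2% lower with it.

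Among the exportins, XPO1 and XPO5 changed places. As a share of the summed exportin signal per kilobase, XPO1 held 13.1%, 12.8% and 12.4% in the DMSO libraries and 17.5%, 17.4% and 17.6% in the BRL-50481 libraries. The share of XPO5 was 15.8%, 15.7% and 15.6% in the DMSO libraries and 9.72%, 10% and 9.9% in the BRL-50481 libraries. XPOT held 16.3% ± 0.384 in DMSO and 18.8% ± 0.34 in BRL-50481, and CSE1L held 40.6% ± 0.634 in DMSO and 40% ± 0.0745 in BRL-50481, ranges that overlapped. XPO5 thus ranked above XPO1 in each DMSO library and below it in each BRL-50481 library, while CSE1L was the largest in all 6. The exportin sum per kilobase was 11699, 10772 and 11010.5 in the DMSO libraries and 12319, 12314 and 12254 in the BRL-50481 libraries.

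**Figure D4:**
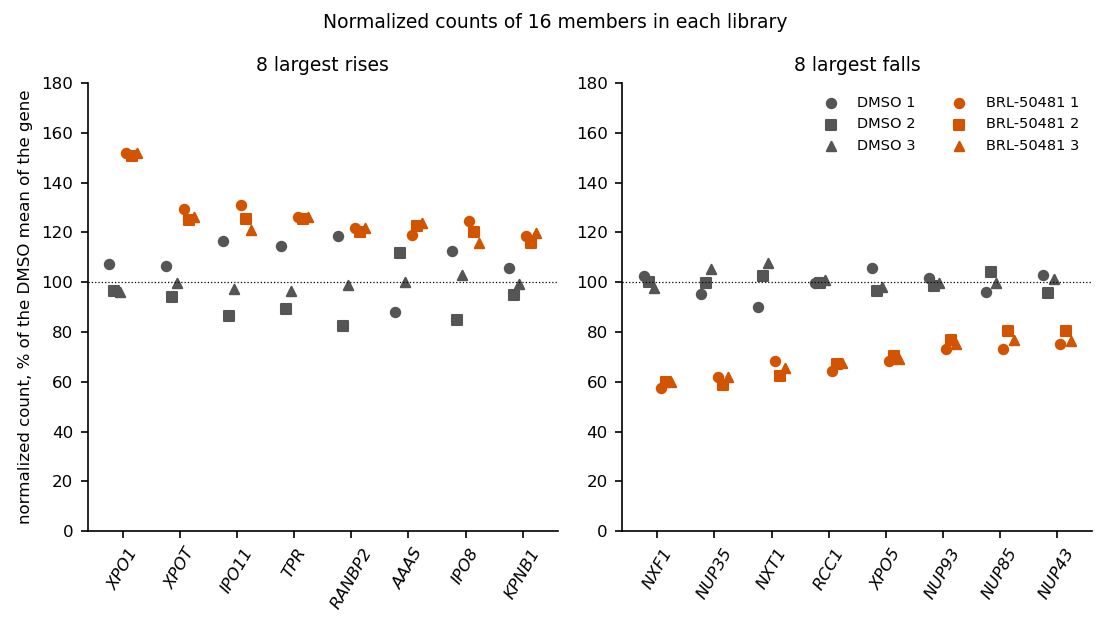
Normalized count in each of the 6 libraries as a percent of the DMSO mean of the gene, for the 8 called genes with the largest rise and the 8 with the largest fall; grey marks are DMSO libraries, orange marks BRL-50481 libraries, and the shape gives the replicate. The 3 BRL-50481 libraries of XPO1 lie at 151% to 152% and those of NXF1 at 57.5% to 60%, whereas the DMSO libraries of RANBP2 spread from 82.6% to 119%.

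Promoters are shown for the largest changes in each direction, XPO1, NXF1, NXT1 and NUP35, a nucleoporin of the inner ring described below, and for NUP133, the one called gene with a cyclic AMP response element (CRE). Each is a RefSeq window on GRCh38.p14 (hg38) from 250 bases before to 50 bases after a transcription start, written 5′ to 3′ on the strand of the gene, with motif matches in capitals. The motifs searched on both strands were the CRE (TGACGTCA), the E2F site (TTTCGCGC, TTTGGCGC, TTTCCCGC or TTTGCCGC), the E-box (CACGTG), the cell-cycle homology region CHR (TTTGAA) and the CCAAT box (CCAAT), none of which contains another. XPO1 has 2 windows, with CCAAT boxes at 75 and 32 bases before the start in one and an E-box at 44 bases before the start in the other. NXF1 holds none of the 5 motifs, NXT1 has a CCAAT box, NUP35 has a CHR and a CCAAT box, and the CRE of NUP133 begins 22 bases before the start.
XPO1, chr2:61538307-61538606, minus strand: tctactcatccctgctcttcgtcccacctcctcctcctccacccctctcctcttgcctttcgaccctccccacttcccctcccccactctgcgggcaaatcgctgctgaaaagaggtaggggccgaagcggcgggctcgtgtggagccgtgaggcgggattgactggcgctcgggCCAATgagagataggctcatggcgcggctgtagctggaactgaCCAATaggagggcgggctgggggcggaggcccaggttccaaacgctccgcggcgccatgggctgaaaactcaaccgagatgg
XPO1, chr2:61537038-61537337, minus strand: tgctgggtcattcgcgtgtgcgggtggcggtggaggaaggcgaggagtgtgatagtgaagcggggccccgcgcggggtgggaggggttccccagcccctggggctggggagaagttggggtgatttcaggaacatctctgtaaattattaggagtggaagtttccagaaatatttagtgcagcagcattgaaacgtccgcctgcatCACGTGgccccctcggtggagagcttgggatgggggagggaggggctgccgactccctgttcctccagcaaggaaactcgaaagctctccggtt
NXF1, chr11:62805391-62805690, minus strand: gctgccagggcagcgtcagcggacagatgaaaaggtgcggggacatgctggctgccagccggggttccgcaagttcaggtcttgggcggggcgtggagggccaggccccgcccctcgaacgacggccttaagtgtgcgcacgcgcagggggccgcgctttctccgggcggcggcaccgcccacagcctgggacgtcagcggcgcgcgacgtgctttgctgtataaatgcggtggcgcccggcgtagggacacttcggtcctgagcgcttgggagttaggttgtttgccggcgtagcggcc
NXT1, chr20:23350541-23350840, plus strand: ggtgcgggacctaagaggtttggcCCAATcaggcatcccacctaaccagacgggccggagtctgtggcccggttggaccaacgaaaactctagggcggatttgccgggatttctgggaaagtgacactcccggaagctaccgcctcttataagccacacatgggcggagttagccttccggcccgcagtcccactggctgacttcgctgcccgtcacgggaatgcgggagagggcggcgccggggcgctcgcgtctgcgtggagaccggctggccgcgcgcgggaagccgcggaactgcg
NUP35, chr2:183124193-183124492, plus strand: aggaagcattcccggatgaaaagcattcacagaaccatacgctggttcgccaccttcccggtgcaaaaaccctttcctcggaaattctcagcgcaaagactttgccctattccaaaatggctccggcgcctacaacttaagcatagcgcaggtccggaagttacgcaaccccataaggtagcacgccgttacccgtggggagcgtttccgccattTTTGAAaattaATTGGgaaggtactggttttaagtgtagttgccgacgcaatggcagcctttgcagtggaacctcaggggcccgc
NUP133, chr1:229508292-229508591, minus strand: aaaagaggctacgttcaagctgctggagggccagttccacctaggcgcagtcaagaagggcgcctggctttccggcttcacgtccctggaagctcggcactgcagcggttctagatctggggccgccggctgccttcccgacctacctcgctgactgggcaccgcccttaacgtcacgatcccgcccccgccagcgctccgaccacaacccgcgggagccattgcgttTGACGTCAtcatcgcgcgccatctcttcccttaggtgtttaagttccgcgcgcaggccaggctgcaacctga

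Over all members, 47 of 54 genes had at least 1 window, 60 windows in all. The CRE was found in 2 of the 47 genes (4.26%, against 1.85% of the 35116 RefSeq promoters), NUP133, which rose, and NUP214, which was not called. An E2F site lay in 3 genes (6.38%, against 3.32% of promoters), of which IPO7 and IPO11 rose and NUP155 was not called. Neither motif occurred in the 15 genes with a window that were lower, too few genes to show a difference for motifs this rare. E-boxes lay in 9 genes (19.1%, against 7.26%), 4 of them higher and 3 lower, CHR elements in 13 (27.7%, against 15.2%) and CCAAT boxes in 22 (46.8%, against 34.6%). Members with several windows had more chances to hold a motif, since a gene was counted if any of its windows did, and a match describes letters only. Counted by window, as the RefSeq promoters were, the shares among the 60 windows were lower. They were 3.33% for the CRE, 5% for E2F, 15% for the E-box, 25% for the CHR and 43.3% for the CCAAT box.

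In the outer ring of the pore, the Y-shaped scaffold complex, 4 of the 6 measured members fell and 2 rose. Among all genes tested, 29.8% were lower and 28.9% higher. NUP85 (chr17:75205659-75235758, plus strand) had normalized counts of 2131, 2308 and 2206 in the DMSO libraries and 1624, 1784 and 1698 in the BRL-50481 libraries (log2 fold change -0.38 ± 0.059 SE, adjusted p = 9.77e-05). NUP43 (chr6:149724315-149749665, minus strand) had 3252, 3029.8 and 3202 in the DMSO libraries and 2374, 2540.3 and 2413 in the BRL-50481 libraries (log2 fold change -0.37 ± 0.054 SE, adjusted p = 5.53e-05). NUP160, at -0.36 ± 0.061 log2 units (adjusted p = 2.41e-04), and NUP107, at -0.19 ± 0.051 log2 units (adjusted p = 0.00572), were lower as well, NUP107 at a corrected log2 fold change of -0.35. These falls came to 23.2%, 22.7%, 22% and 12.5%, without overlap of the groups for any of the 4 genes. Of all genes tested, 32.3% were lower without overlap. NUP37, at 0.22 ± 0.064 log2 units (adjusted p = 0.0101), and NUP133, at 0.19 ± 0.063 log2 units (adjusted p = 0.0164), were higher. The call of NUP133 ended with the length and GC correction (corrected log2 fold change 0.070) and in 4 of the 6 fits without 1 library, and that of NUP37 ended without BRL-50481 replicate 1 (log2 fold change 0.19). Summed per kilobase, the outer ring stood at 4495, 4313 and 4314 in the DMSO libraries and 3786, 3870.2 and 3842 in the BRL-50481 libraries.

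In the inner ring, which lines the pore membrane, NUP35 and NUP93 fell. NUP35 (also Nup53, chr2:183117513-183161680, plus strand) had normalized counts of 1073, 1124 and 1186 in the DMSO libraries and 699, 664 and 697 in the BRL-50481 libraries, a fall of 39% and the largest among nucleoporins in the log2 estimate (log2 fold change -0.71 ± 0.067 SE, adjusted p = 1.35e-06). NUP93, the linker that holds the ring together (chr16:56730118-56850286, plus strand), had 3378, 3275 and 3309.5 in the DMSO libraries and 2424, 2543 and 2496 in the BRL-50481 libraries, a fall of 25.1% (log2 fold change -0.42 ± 0.050 SE, adjusted p = 1.05e-05). Both groups of libraries were narrow for NUP93, with SDs of 52.3 and 60. NUP188, a large scaffold protein and the most abundant member of the ring per kilobase over all libraries, had 4483, 4174 and 4134 in the DMSO libraries and 4601, 4893 and 4720.4 in the BRL-50481 libraries (log2 fold change 0.15 ± 0.051 SE, adjusted p = 0.0207). Its call ended with the correction (corrected log2 fold change 0.040) and in 3 of 6 fits without 1 library. NUP205 at -0.092 ± 0.070 log2 units (adjusted p = 0.275) and NUP155 at 0.022 ± 0.080 log2 units (adjusted p = 0.833) were not called. With the correction both were lower (corrected log2 fold changes -0.25 and -0.16). This made 4 of the 5 inner ring genes lower, against 37.2% of all genes with a known length.

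The central channel proteins measured were NUP62, NUP98 and NUP54, which carry the phenylalanine-glycine repeats that importins and exportins touch. NUP98, the most abundant of them (chr11:3671083-3797792, minus strand), had normalized counts of 9026, 7441 and 7837 in the DMSO libraries and 6832, 7182 and 6937 in the BRL-50481 libraries (log2 fold change -0.21 ± 0.064 SE, adjusted p = 0.0125). DMSO replicate 1 was the highest by a wide margin. The fall was 13.5%, its call ended without BRL-50481 replicate 1 (log2 fold change -0.19), and without DMSO replicate 1 the log2 fold change was -0.13. It was -0.37 with the length and GC correction, and not called by limma without a trend (adjusted p = 0.0825). NUP62 fell from 2782 ± 117 to 2237 ± 85.2 (log2 fold change -0.31 ± 0.055 SE, adjusted p = 2.98e-04). In GENCODE its exons overlap IL4I1, and 16.4% of its 76-base windows also occur in another gene, so some of its reads are uncertain. NUP54, the partner of NUP62, was not called at 0.11 ± 0.055 log2 units (adjusted p = 0.104).

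At the cytoplasmic face, RANBP2 (Nup358), the filament protein that binds RAN and ligates SUMO (chr2:108719482-108785810, plus strand), had normalized counts of 5218, 3631 and 4344 in the DMSO libraries and 5349.6, 5285 and 5359 in the BRL-50481 libraries (log2 fold change 0.29 ± 0.095 SE, adjusted p = 0.0171). The DMSO libraries spread widely, with replicate 1 at 5218 only just below the BRL-50481 libraries. The log2 fold change was 0.42 without that library, 0.16 without DMSO replicate 2 and 0.047, not called, with the length and GC correction, and 20.5% of the 76-base windows of the transcript recur in the RGPD family. NUP88 (chr17:5359668-5420164, minus strand), the most abundant per kilobase at this face, had 3144, 3073 and 3292 in the DMSO libraries and 3141, 3294 and 3278 in the BRL-50481 libraries (log2 fold change 0.031 ± 0.051 SE, adjusted p = 0.627). Its groups overlapped, as did those of NUP214, its partner, at -0.10 ± 0.062 log2 units (adjusted p = 0.198), which the correction called lower (-0.24).

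In the nuclear basket, TPR, the coiled-coil protein that forms its rods (chr1:186311652-186375693, minus strand), rose by 26.6%. Its normalized counts were 9838, 7679.9 and 8277 in the DMSO libraries and 10856, 10777 and 10836 in the BRL-50481 libraries (log2 fold change 0.34 ± 0.072 SE, adjusted p = 0.00125). The SD was 41.3 over the BRL-50481 libraries and 1114 over the DMSO libraries, of which replicate 1 lay closest to BRL-50481. TPR kept its call in all 17 alternatives, but its estimate was 0.13 with the length and GC correction. NUP153, the most abundant basket protein (chr6:17615035-17706925, minus strand), had 8719, 6917 and 7391 in the DMSO libraries and 6936, 6925 and 7053 in the BRL-50481 libraries (log2 fold change -0.13 ± 0.070 SE, adjusted p = 0.122), with replicate 1 again the highest of the DMSO libraries. NUP50, a RAN-dependent import cofactor, was at 0.0014 ± 0.061 log2 units (adjusted p = 0.986). With the correction NUP153 and NUP50 were called lower (corrected log2 fold changes -0.28 and -0.12). As a share of the basket per kilobase, TPR held 33.9%, 33% and 33.4% in the DMSO libraries and 40.5%, 40.6% and 40.1% in the BRL-50481 libraries, and NUP153 held 47.8% ± 0.268 in DMSO and 41.6% ± 0.206 in BRL-50481. Within this group, therefore, the shares of TPR and NUP153 did not overlap between DMSO and BRL-50481, although their counts did for NUP153.

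Among the proteins that anchor the pore, AAAS (ALADIN, chr12:53307456-53324864, minus strand) had normalized counts of 643, 815 and 731 in the DMSO libraries and 867, 893 and 902 in the BRL-50481 libraries (log2 fold change 0.29 ± 0.084 SE, adjusted p = 0.00979). This rise of 22.1% was the only called rise that grew with the length and GC correction (corrected log2 fold change 0.33). Its transcript, at 1815 bases, was the shortest of the called rises, and DMSO replicate 1 was here the lowest library. NUP210, a membrane-spanning glycoprotein, was not called at 0.062 ± 0.062 log2 units (adjusted p = 0.408). NUP62CL, a relative of NUP62 with low counts, had 136, 124 and 132 in the DMSO libraries and 146, 116 and 103 in the BRL-50481 libraries (log2 fold change -0.12 ± 0.15 SE, adjusted p = 0.508), which overlapped.

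The Ran cycle supplies the GTP gradient that gives transport its direction, and its members diverged. RCC1, the chromatin-bound exchange factor that loads RAN with GTP (chr1:28505943-28539300, plus strand), had normalized counts of 5358, 5355 and 5427 in the DMSO libraries and 3450.0, 3617 and 3643 in the BRL-50481 libraries, a fall of 33.7% (log2 fold change -0.59 ± 0.047 SE, adjusted p = 3.21e-07). The SD over the DMSO libraries was only 40.7, and every BRL-50481 library lay below them. The noncoding gene SNHG3 overlaps its exons in GENCODE, with which it shares 3.07% of its 76-base windows. RANBP1, a cofactor of GTP hydrolysis, fell from 3077 ± 219.6 to 2445 ± 175 (log2 fold change -0.33 ± 0.068 SE, adjusted p = 9.28e-04). It shares 13.2% of its 76-base windows with other genes, pseudogenes among them. RAN itself (chr12:130872037-130877678, plus strand) had 9444, 10149 and 9689 in the DMSO libraries and 10769, 10468 and 10704 in the BRL-50481 libraries (log2 fold change 0.13 ± 0.045 SE, adjusted p = 0.0293). Its rise of 9.12% kept its call with the length and GC correction (corrected log2 fold change 0.10) but lost it in 4 of the 6 fits without 1 library. RANGAP1, the GTPase-activating protein, was not called at -0.030 ± 0.052 log2 units (adjusted p = 0.645).

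**Figure D5:**
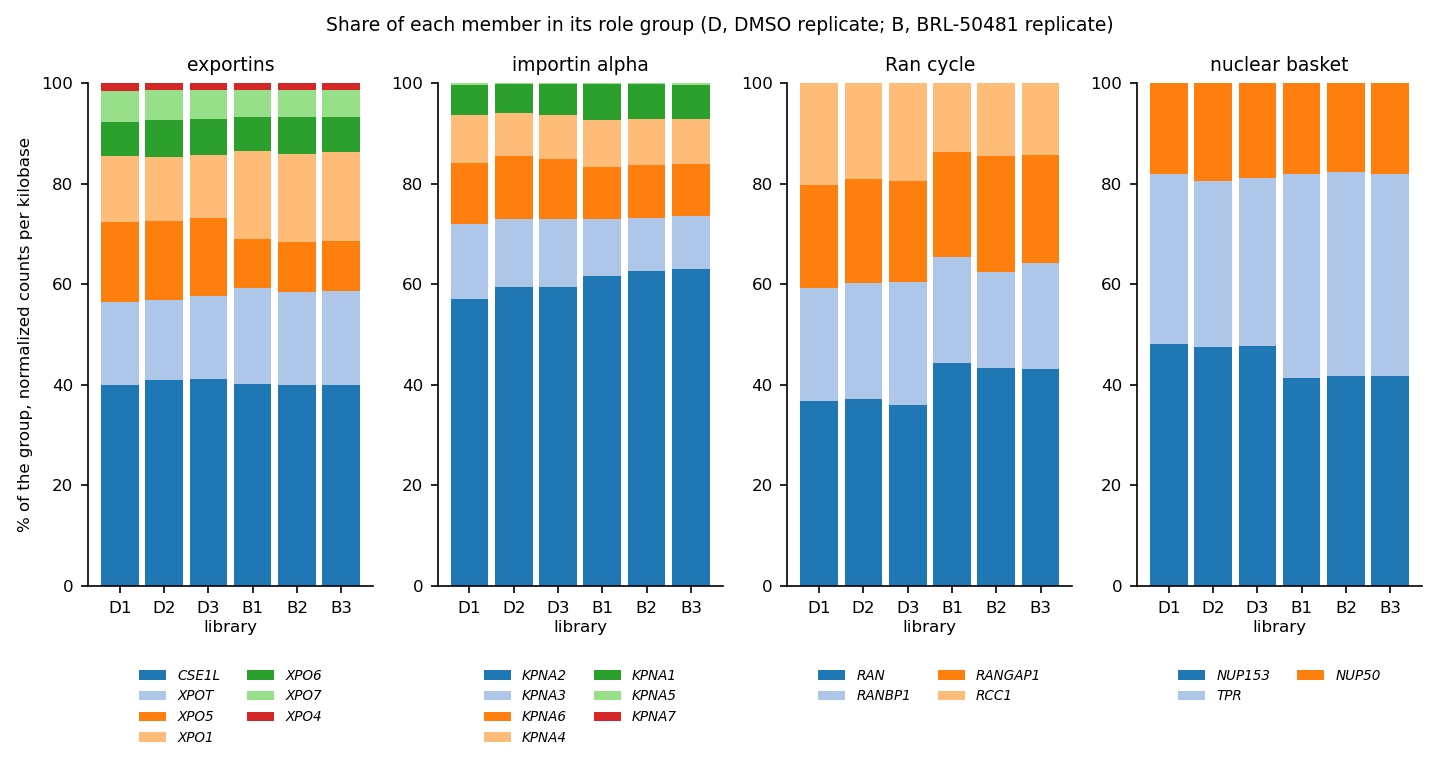
Share of each gene in the summed normalized counts per kilobase of its role group, in percent, in each of the 6 libraries, for the exportins, importins alpha, Ran cycle and nuclear basket. XPO1 widens and XPO5 narrows in the BRL-50481 libraries, RAN widens and RCC1 narrows, and TPR widens while NUP153 narrows.

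As shares of the Ran cycle per kilobase, RAN held 36.8%, 37.1% and 35.9% in the DMSO libraries and 44.4%, 43.4% and 43.1% in the BRL-50481 libraries. RCC1 held 20.3%, 19% and 19.5% in the DMSO libraries and 13.8%, 14.6% and 14.2% in the BRL-50481 libraries. RAN was the most abundant and RCC1 the least abundant of the group in all 6 libraries, and the distance between them widened. The ranges of the shares did not overlap for RAN, RCC1 or RANBP1. For RANGAP1 they only just missed each other, at up to 20.766% in DMSO and from 20.773% in BRL-50481, and its counts overlapped. A share also rises when other members of the group fall. The sum of the group per kilobase was 10362, 11055 and 10894 in the DMSO libraries and 9799, 9742 and 10034 in the BRL-50481 libraries.

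The importins alpha bind classical nuclear localization signals and couple them to KPNB1. Of the 7 genes, 1 rose, 2 fell and 4 were not called, KPNA7 among them. Of all genes tested, 28.9% were higher and 29.8% lower. KPNA2 (chr17:68035636-68047364, plus strand), by far the most abundant, had normalized counts of 6834, 6947 and 7063 in the DMSO libraries and 7258, 7396 and 7486 in the BRL-50481 libraries (log2 fold change 0.087 ± 0.044 SE, adjusted p = 0.106). The groups did not overlap, yet the difference did not pass the test, and it did with the length and GC correction (corrected log2 fold change 0.080). KPNA3, at -0.37 ± 0.062 log2 units (adjusted p = 1.98e-04), and KPNA6, at -0.24 ± 0.045 log2 units (adjusted p = 4.86e-04), fell, KPNA6 with a corrected log2 fold change of -0.41. KPNA1 rose at 0.22 ± 0.052 log2 units (adjusted p = 0.00282), a call that ended with the correction (corrected log2 fold change 0.046). KPNA4 at 0.037 ± 0.054 log2 units (adjusted p = 0.581) and KPNA5 at 0.014 ± 0.18 log2 units (adjusted p = 0.954) were not called, KPNA4 being lower with the correction (-0.16) and KPNA5 starting from only 155 ± 45 normalized counts in DMSO. The summed level of the 7 genes per kilobase was 6066, 5904 and 6007 in the DMSO libraries and 5957, 5979 and 6008 in the BRL-50481 libraries, ranges that overlapped. Within it, KPNA2 took 58.7% ± 1.45 in DMSO and 62.4% ± 0.707 in BRL-50481, and KPNA3 took 14% ± 0.944 in DMSO and 10.9% ± 0.427 in BRL-50481.

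Of the 11 importins beta and transportins, 4 rose, 2 fell and 5 were not called. Of all genes tested, 28.9% were higher and 29.8% lower. KPNB1, the carrier of importin alpha and its cargo (chr17:47649476-47685505, plus strand), was the most abundant, with 22236, 19917 and 20897 in the DMSO libraries and 24944, 24359 and 25155 in the BRL-50481 libraries, a rise of 18.2% (log2 fold change 0.24 ± 0.048 SE, adjusted p = 8.19e-04). It held its call in all 17 alternatives, with a corrected log2 fold change of 0.093 under the length and GC correction. IPO11 (chr5:62403972-62628582, plus strand) had 1032, 763 and 860.1 in the DMSO libraries and 1161, 1108 and 1071 in the BRL-50481 libraries (log2 fold change 0.34 ± 0.094 SE, adjusted p = 0.00702). IPO8 (chr12:30628988-30695869, minus strand) had 2779, 2089 and 2537 in the DMSO libraries and 3072, 2967 and 2856 in the BRL-50481 libraries (log2 fold change 0.27 ± 0.085 SE, adjusted p = 0.0133). In both genes the BRL-50481 libraries lay above DMSO replicate 1, the highest of the DMSO libraries, and the call of IPO8 ended without BRL-50481 replicate 1 (log2 fold change 0.25). IPO8 dropped to a log2 fold change of 0.16 without DMSO replicate 2 and of 0.15 with the length and GC correction, still called in both. Without a trend in limma neither IPO8 (adjusted p = 0.0921) nor IPO11 (adjusted p = 0.0564) was called.

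IPO7, an importer of ribosomal proteins and histones, was higher at 0.16 ± 0.062 log2 units (adjusted p = 0.0394), although DMSO replicate 1 (15394) exceeded BRL-50481 replicates 2 and 3 (15241 and 15304). With the length and GC correction the log2 fold change of IPO7 was 0.0050, and it was called in 1 of 6 fits without 1 library. TNPO3, which imports serine-arginine splicing factors, fell by 19.4%, from 3868 ± 171 to 3114 ± 25.8 (log2 fold change -0.31 ± 0.051 SE, adjusted p = 1.54e-04). IPO4 was lower at -0.33 ± 0.062 log2 units (adjusted p = 5.29e-04), but 94.9% of its 76-base windows lie in an overlapping GENCODE gene as well, so the reads cannot be given to IPO4 alone. IPO5 at 0.071 ± 0.056 log2 units (adjusted p = 0.29), IPO9 at -0.046 ± 0.054 log2 units (adjusted p = 0.485), IPO13 at -0.087 ± 0.062 log2 units (adjusted p = 0.25), TNPO1 at -0.11 ± 0.082 log2 units (adjusted p = 0.264) and TNPO2 at -0.10 ± 0.050 log2 units (adjusted p = 0.0884) were not called. In these 5 genes the length and GC correction gave a call of lower, with log2 fold changes from -0.31 in TNPO1 to -0.079 in IPO5. Of all genes with a known length, 37.2% were lower with it. The shares of KPNB1 in this group per kilobase were 25.9%, 27% and 26.7% in the DMSO libraries and 29.6%, 29.4% and 30.4% in the BRL-50481 libraries.

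The calls were repeated with each library left out in turn. Of the 17 falls, 16 were called in all 6 fits without 1 library, the exception being NUP98, and of the 15 rises 7 were. The number of rises was 22 without DMSO replicate 1, 12 and 10 without DMSO replicates 2 and 3, and 9, 9 and 10 without BRL-50481 replicates 1, 2 and 3. CSE1L and IPO7 were called in 1 of these 6 fits, RAN and NUP133 in 2, NUP188 in 3, RANBP2 in 4, and IPO8 and NUP37 in 5. Without a trend in limma, 7 rises and 16 falls were called. Of all genes tested, 28.9% were higher in the main analysis and 32.0% without DMSO replicate 1. For the fits without another library, and without a trend, no share of all genes is given. These counts therefore do not set the members apart from the whole table. Other genes share part of the transcript of several members, so that reads may be divided, with 10.4% of 76-base windows in KPNA2, 10.3% in NUP50, 8.25% in IPO11, 7.07% in KPNA6 and 6.41% in NUP133. The rises that held in all 17 alternatives were those of XPO1, XPOT, KPNB1, AAAS and TPR.

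Pore components that carry other names were counted apart. Of 10 such genes, 4 were called lower (limma) and the other 6 were not called, against 29.8% lower among all genes tested. RAE1, an mRNA export factor that binds NUP98, was at -0.58 ± 0.052 log2 units (adjusted p = 9.72e-07), and SEC13 and SEH1L, both of the outer ring, were at -0.47 ± 0.051 log2 units (adjusted p = 4.64e-06) and -0.39 ± 0.050 log2 units (adjusted p = 2.05e-05). NUPL2 (NUP42), of the cytoplasmic face, was at -0.54 ± 0.070 log2 units (adjusted p = 2.44e-05). NUPL1 (NUP58), of the central channel, at -0.10 ± 0.068 log2 units (adjusted p = 0.224), the membrane nucleoporin NDC1, at 0.015 ± 0.053 log2 units (adjusted p = 0.828), and AHCTF1, GLE1, POM121 and POM121C were not called. With the length and GC correction 8 of the 10 were lower, AHCTF1, NUPL1, NDC1 and POM121C among them. Of all genes with a known length, 37.2% were lower with that correction.

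Soluble transport factors outside the rule, listed together with further RANBP symbols, gave 3 rises and 7 falls among 13 tested. Of all genes tested, 28.9% were higher and 29.8% lower. The list holds RANBP9, called higher, and RANBP10, called lower, for their symbols, and a transport role of either was not tested. NCBP2, a subunit of the nuclear cap-binding complex, fell from 6912 ± 65.8 to 4430 ± 193 normalized counts, -0.64 ± 0.048 log2 units (adjusted p = 2.00e-07), and NUTF2, which imports RAN, was at -0.27 ± 0.053 log2 units (adjusted p = 8.52e-04). RANBP9 at 0.34 ± 0.046 log2 units (adjusted p = 3.68e-05) and RANBP17 at 0.61 ± 0.15 log2 units (adjusted p = 0.0037) were higher, as was RANBP3L from near 0, a call made in 3 of the 6 fits without 1 library. NMD3, the adaptor through which XPO1 exports large ribosomal subunits, was lower at -0.20 ± 0.051 log2 units (adjusted p = 0.00426). SNUPN and PHAX, adaptors for small nuclear RNA, were not called, SNUPN being higher with the length and GC correction (corrected log2 fold change 0.15).

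Of 19 other mRNA export factors, relatives of the receptor included, 5 were higher, 7 lower and 7 not called. Among all genes tested, 28.9% were higher and 29.8% lower. The median log2 fold change of -0.021 is the estimate of DDX39B (SE 0.55), which was not called and lay close to the floor. DDX39B had 6, 3 and 7 reads in the DMSO libraries and 5, 8 and 3 in the BRL-50481 libraries, so this median says little. Whether so few reads reflect little RNA or how reads were assigned to this gene was not tested. CHTOP, which helps load NXF1, had the largest fall of the list, from 6931 ± 396 to 4062 ± 34.0 normalized counts, -0.77 ± 0.052 log2 units (adjusted p = 7.64e-08), and ENY2 and POLDIP3 were at -0.64 ± 0.066 log2 units (adjusted p = 3.03e-06) and -0.31 ± 0.052 log2 units (adjusted p = 1.85e-04). ALYREF, the adaptor that hands mRNA to NXF1, was not called at -0.054 ± 0.069 log2 units (adjusted p = 0.522), and THOC2, the scaffold of the THO complex, was higher at 0.18 ± 0.050 log2 units (adjusted p = 0.00648), a call that ended with the length and GC correction. NXF3 and NXT2, relatives of the export receptor, were higher at 0.67 ± 0.16 log2 units (adjusted p = 0.0031) and 0.26 ± 0.10 log2 units (adjusted p = 0.0351), from 62.3 ± 8.46 and 292 ± 30.0 normalized counts in DMSO. NXT2 was called in 1 of 6 fits without 1 library, and not by DESeq2 (adjusted p = 0.0585) or after quantile normalization (adjusted p = 0.105).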

How the data were processed

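Gene expression was measured by strand-specific RNA sequencing in 6 libraries of MDA-MB-231 cells, 3 per group, grouped by their labels. According to the Methods and the submitters' processing notes, the authors mapped 76-base single-end reads with STAR 2.7.1a (hg38), counted them per gene with HTSeq on the UCSC annotation, and normalized and tested them with DESeq2 1.28. The signal deposited for each gene and library is the read count divided by the size factor of the library. The deposited mean, log2 fold change, standard error, test statistic and p-values of the authors' own comparison were not used. One read was worth 0.969 to 1.0215 normalized counts, depending on the library, and dividing by it gave whole reads for all 93906 values (within 1e-06 reads), which the count-based tests used.

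Genes reaching 4 normalized counts in 3 or more libraries entered the test, which was limma 3.58.1 under R 4.3.3. Values were transformed as log2(normalized count + 1), and lmFit was followed by eBayes with its trend option, so fold changes of low genes are understated. Benjamini-Hochberg adjustment covered all 15246 genes, and genes were called at an adjusted p-value under 0.05. P-values set the difference between the groups against the spread of 3 libraries per group, moderated over all genes. What separates these replicates is not stated. An exact permutation test of 3 against 3 libraries cannot go below p = 0.1 and was not used. The procedure was tested on simulated data.

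As alternatives, 0.5 or 4 was added before the logarithm, the filter was dropped or raised to a mean of 20, and the following were tried: limma without a trend, median centring, quantile normalization, edgeR 4.0.16 and DESeq2 1.42.0 on the reads, the replicate number as a block, a loess correction (span 0.5) of each library for transcript length and GC content, and each library left out. Lengths, GC content and positions are those of canonical GENCODE release 44 transcripts on hg38, which 96.5% of the genes matched by symbol. A 76-base window of a transcript was called shared if it occurs in a transcript of another gene. Promoter sequences are from RefSeq (GRCh38.p14). Python 3.11.15 was used for the rest.

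The members were fixed by symbol, and the members and all lists were chosen with earlier results of these data known. Every member was named or counted, and values in each library were given for the 8 largest called rises and falls with a mean of at least 100 and for the most abundant member per kilobase of each role group.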

Additional observations from a re-analysis of the deposited data

How the results depend on the processing

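Among the log2 fold changes of the 54 members, 814 values under the alternatives kept their direction and call, and 33 changed sign. Of those that kept their sign, 29 newly passed and 41 no longer passed the threshold. A changed sign could also bring a call. With the length and GC correction IPO5, KPNA4, NUP155, NUP50 and XPO4 changed sign and were called lower. The number of members lower in BRL-50481 was 17 in the main analysis, 30 with the length and GC correction, and 16 to 21 when 1 library was left out. The number higher was 15, then 7 for limma without a trend, and 9 to 22 when 1 library was left out. It was 9 without BRL-50481 replicate 1 or 2 and 22 without DMSO replicate 1. Of all genes tested, 28.9% were higher in the main analysis and 32.0% without DMSO replicate 1. In the main analysis 29.8% of them were lower, and with the correction 37.2% of the genes with a known length. The median log2 fold change of the members, -0.0065, became -0.14 with the correction. It lay between -0.049 and 0.028 when 1 library was left out, against a spread of 0.068 between the medians of the libraries. The cause of these shifts was not tested.

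With the replicate number as a block (replicate block), 15 members were higher and 17 lower, as without it, and the block changed no call of a member. Same-numbered libraries deviated together with correlations of 0.121, 0.104 and 0.0514, and 5 of 6 libraries correlated best with their own number. Whether same-numbered libraries share more than a number was not tested. 

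Every change of sign was in a member that was not called in the main analysis. With the length and GC correction these were IPO5 at -0.079, KPNA4 at -0.16, KPNA5 at -0.24, NUP155 at -0.16, NUP210 at -0.035, NUP50 at -0.12, NUP88 at -0.040 and XPO4 at -0.18. With quantile normalization, KPNA5 was at -0.088 and XPO7 at 0.043, and with median centring RANGAP1 was at 0.00055 and XPO7 at 0.016. With edgeR, KPNA5 was at -0.020 and NUP50 at -0.0028, and with DESeq2 they were at -0.018 and -0.00025. Over the fits that left out 1 library, the log2 fold change ranged from -0.084 to 0.010 for IPO9, -0.0032 to 0.086 for KPNA4, -0.20 to 0.22 for KPNA5, -0.057 to 0.13 for NUP155, -0.039 to 0.064 for NUP50, -0.063 to 0.010 for RANGAP1, -0.21 to 0.0049 for TNPO1, -0.041 to 0.15 for XPO4 and -0.040 to 0.032 for XPO7. KPNA7 and NUP62CL had the fewest reads of the members, and depth limits what could be seen in them.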

Other observations

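The nuclear lamina, the protein mesh under the envelope in which pores sit, moved both ways as well (limma, log2 fold change ± SE). Of 11 genes, 3 were higher, 4 lower and 4 not called, against 28.9% higher and 29.8% lower among all genes tested. With the length and GC correction 3 were higher and 6 lower, against 28.5% and 37.2% of the genes with a known length. SUN2, a bridge to the cytoskeleton, was higher at 0.79 ± 0.052 log2 units (adjusted p = 6.28e-08), from 2761 ± 119 to 4780 ± 137 normalized counts, whereas its relative SUN1 was lower at -0.17 ± 0.047 log2 units (adjusted p = 0.00788). TMPO, a lamina-associated protein, was higher at 0.33 ± 0.048 log2 units (adjusted p = 6.30e-05), and LMNA, the gene of lamins A and C, was lower at -0.24 ± 0.057 log2 units (adjusted p = 0.00302). BANF1, which ties chromatin to the envelope, and LEMD3 were lower at -0.38 ± 0.059 log2 units (adjusted p = 9.88e-05) and -0.39 ± 0.083 log2 units (adjusted p = 0.00125).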
